A study of Mus musculus with 2 samples.

Results

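The small leucine-rich proteoglycans are secreted proteins of the extracellular matrix, and mRNA of 10 of them was followed here through the mesenchyme of the embryonic mouse coronal suture. The members were taken by gene symbol from both gene lists of the study and are Bgn, Dcn, Aspn, Fmod, Lum, Kera, Prelp, Omd, Ogn and Podnl1. They are 10 of 26514 genes that both lists hold, and each had at least 50 unique molecular identifiers (UMIs) in the labelled cells of each library, as 11868 genes did. The coronal suture is the fibrous joint between the frontal and parietal bones of the skull. Single cells of wild-type C57/BL6 coronal sutures from embryos at E15.5 and at E17.5 (days of embryonic development) were profiled with 10x Genomics 3′ v2 reagents, with 1 deposited count matrix per stage, called a library here. For E15.5, 10 sutures were digested for 45 min with Collagenase II at 3 mg/mL and Dispase, and dead cells were removed with a kit. For E17.5, 16 sutures of 2 litters were digested in 3 batches for 30 min with Collagenase IV at 2 mg/mL, and live cells were sorted. The stages were sequenced at different centres, and their matrices list 31053 and 27998 genes. The stage therefore comes with its own embryos, enzyme, way of removing dead cells, sequencing and counting, which cannot be told apart.

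The authors assigned mesenchymal and osteogenic cells to 15 clusters, and these labels were used as deposited. Ectocranial clusters, above the suture, are EC1 to EC4 and the ligament-like LIG. Meningeal clusters, below the suture, are MG1 to MG4. Osteogenic clusters are OG1 to OG4 and the proliferating PO1 and PO2. Labels were matched to 5335 cells at E15.5 (median of 8510 UMIs per cell) and to 6830 cells of the E17.5 library (median of 12302). The UMIs per cell in the table of labels equalled the matrix in all 6830 cells of the later library and in 0 of 5335 of the earlier, where the matrix held a median of 74.0% of the table's UMIs. A level is the number of UMIs of a gene summed over the cells of a cluster per 1000000 UMIs of that cluster (CPM), and the range in parentheses is its exact Poisson 95% interval. With 1 library (count matrix) per stage no test was possible, and intervals cover counting error only, not the spread between cells or embryos. They are too narrow where few cells hold most UMIs of a gene, as for Kera. Levels of different genes are not ordered, since counts at the 3′ end were not divided by length.

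Each E17.5 barcode ends in a number from 1 to 3, a suffix not assigned to a batch or litter, and values by suffix give a spread within that stage, which may hold differences between batches, litters and embryos. Over 104 pairs of a member and a cluster with enough counts, the highest suffix was a median of 1.21 times the lowest, and it was at least 2 times the lowest in 7. In LIG, the 32 cells of suffix 1 had 916 CPM of Dcn and 510 of Lum, against 2272 and 2218 of Dcn and 1409 and 1358 of Lum in the other suffixes.

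These proteins share a core of leucine-rich repeats that folds into a curved solenoid, and most bind fibrillar collagen. Many carry chondroitin or dermatan sulfate chains (decorin, biglycan) or keratan sulfate chains (lumican, fibromodulin, keratocan, osteomodulin), and they set the diameter and spacing of collagen fibrils and hold growth factors such as TGFβ in the matrix. Decorin, biglycan and osteomodulin are all known from the matrix of bone.

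The members sit in the mouse genome (GRCm38) largely in groups of neighbours. On chromosome 10, Dcn (97479609 to 97518143), Lum (97565128 to 97572703) and Kera (97606879 to 97613692) follow each other with no other protein-coding gene between them, and Epyc comes next. On chromosome 13, Aspn (49544443 to 49567565), Omd (49582462 to 49592822) and Ogn (49608046 to 49624501) stand in a row after Ecm2. On chromosome 1, Prelp (133910304 to 133921414) lies between Optc and Fmod (134037254 to 134048277). Bgn is on chromosome X (73483602 to 73495933) and Podnl1 on chromosome 8 (84125989 to 84132527).

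The chromosome 13 group is shown at the level of sequence because its 3 neighbours, 14896 and 15223 bases apart, had unlike distributions over the clusters. The 250 bases before each RefSeq transcription start (GRCm38.p6, plus strand) are given 5′ to 3′ for chr13:49544193-49544442 (Aspn), chr13:49582212-49582461 (Omd) and chr13:49607765-49608014 (Ogn), none of which overlaps an annotated exon. Capitals mark matches to TATAAA, to TGTGGT (the core bound by RUNX factors) or to CANNTG (the E-box) on either strand.
Aspn: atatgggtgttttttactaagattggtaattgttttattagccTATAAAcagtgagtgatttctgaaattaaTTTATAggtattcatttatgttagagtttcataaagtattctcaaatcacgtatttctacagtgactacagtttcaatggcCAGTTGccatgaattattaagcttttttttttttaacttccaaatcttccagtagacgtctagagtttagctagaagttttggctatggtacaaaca
Omd: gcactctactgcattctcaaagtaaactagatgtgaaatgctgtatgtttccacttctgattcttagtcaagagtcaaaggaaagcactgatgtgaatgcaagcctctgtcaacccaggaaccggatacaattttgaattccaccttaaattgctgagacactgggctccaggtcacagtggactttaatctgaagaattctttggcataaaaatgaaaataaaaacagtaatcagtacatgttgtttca
Ogn: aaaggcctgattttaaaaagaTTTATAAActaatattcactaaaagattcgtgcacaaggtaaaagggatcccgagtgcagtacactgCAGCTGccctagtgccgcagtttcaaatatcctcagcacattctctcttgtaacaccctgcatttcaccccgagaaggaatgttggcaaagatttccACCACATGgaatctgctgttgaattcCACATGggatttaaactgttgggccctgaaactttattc
The Ogn window holds a match to TGTGGT on the minus strand, which overlaps an E-box, and it holds 3 E-boxes and 2 overlapping matches to TATAAA. The Aspn window holds 2 matches to TATAAA and 1 E-box, and the Omd window holds none of these motifs. Of 32851 windows of the same length, 12.4% held TATAAA, 14% TGTGGT and 66.2% CANNTG. A match is a description of the letters only. RefSeq promoter entries matched 7 of the 10 members.

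The deposited labels were compared with 12 marker genes. The 4 of osteoblasts, Ibsp and Ifitm5 among them, had their highest levels in OG4 in both libraries, and the 3 of the arachnoid, such as the connexin gene Gjb6, in MG4. Of the 5 ligament-like markers, Tac1, Chodl and Mkx were highest in LIG in both libraries. Scx, a transcription factor of tendon and ligament, was instead highest in MG2 (45.5 and 87.6 CPM, beside 11.5 and 42.5 in LIG), and Tnmd was higher in MG1 (704 CPM) than in LIG (664) at E17.5. Sp7, the transcription factor that commits cells to the osteoblast lineage, was at 4.14, 1.96 and 10.3 CPM in cells labelled OG2, PO1 and PO2 at E15.5 (the last from 5 UMIs), beside 58.7 in OG3 and 204 in OG4. In OG1 it was at 15.1 CPM (29 UMIs) at E15.5, low as well. In the later library it was at 172, 180 and 156 CPM under the same 3 labels. In EC1, an ectocranial label, Sp7 was at 2.93 CPM at E15.5 and at 110 in the later library, above the 91.9 of OG1. By Sp7 alone, cells under the labels EC1, OG2, PO1 and PO2 were unlike their region in 1 library, and these labels are called in doubt here. Markers of these clusters themselves were not checked, and the authors describe Sp7 as rising from OG1 to OG4. The cluster pairs, the region calls and the counts between libraries are given with and without these 4 clusters. Correlations, the most alike genes, region medians, labelled against other cells and the pathway lists use all 15. OG1 was kept throughout. MG1 had 28 cells at E15.5 beside 423 later.

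RNA released from broken cells can enter any droplet, so the levels in macrophages, which should make little of these proteins, were taken as a background. The 231 macrophage-like cells of the E15.5 library (median of 9001 UMIs) and the 481 of the E17.5 library (median of 9562) had 156 and 115 CPM of Dcn, 153 and 151 of Lum, 64.5 and 150 of Bgn, and 22.7 and 85.8 of Aspn. Ogn was at 17.3 and 26.1 CPM in them, Fmod at 6.67 and 23.9, Prelp at 12.9 and 5.97, and Omd at 2.67 and 4.58. Of Podnl1 they held 3 and 6 UMIs in all, and of Kera 0 and 1. Other blood-derived cells held more of some members. Mast-like and osteoclast-like cells had 553 and 623 CPM of Dcn, 123 and 119 of Aspn, and 56.6 and 70.2 of Ogn at E15.5, where OG4 had 530, 56.4 and 64.1. In the later library, 34 mast-like cells had 368 CPM of Dcn (296 to 452), beside 291 in OG4 and 300 in PO1. They had 186 CPM of Aspn (136 to 248) and 44.5 of Ogn (22.2 to 79.6), beside 130 and 44.8 in OG4. The intervals of Bgn, Dcn, Aspn, Lum and Ogn lay above the macrophage interval in all 15 clusters of both libraries. For the less abundant members this was so in 7 clusters at the earlier and 14 at the later stage for Fmod, 7 and 11 for Prelp, 2 and 8 for Omd, 6 and 2 for Kera, and 1 and 5 for Podnl1. Levels in the remaining clusters cannot be told from those in macrophage-like cells. In both libraries, the low levels of Dcn, Aspn and Ogn in OG4 lay below or within the interval of mast-like cells. For osteoclast-like cells this was so at E15.5 only. The 141 osteoclast-like cells of the later library had 130, 108 and 25.0 CPM of these genes, below OG4.

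The members were distributed over the clusters unevenly and differently from one another. A level at least 2-fold above that of all other labelled cells, in both libraries, was found for 9 of 150 pairs of a member and a cluster, where 1.89% of the pairs of all genes tested passed the same limit. The ectocranial pairs were Prelp in EC2 (2.45% of all genes passed there), Kera in EC3 (1.34%) and Aspn in EC4 (1.26%). The meningeal pairs were Fmod and Ogn in MG1 (1.47%) and Bgn in MG2 (2.44%). The osteogenic pairs were Omd and Podnl1 in OG3 (0.725%) and Omd in OG4 (3.02%). The authors name Podnl1 as a marker of OG3 from these same cells. Its calls in OG3 and in osteogenic cells are therefore not independent of the labels. Nor are the calls of the other members, since all clusters were made on the same cells. No member passed in EC1 (0.699%), LIG (0.767%), MG3 (3.53%), MG4 (3.09%), OG1 (0.295%), OG2 (0.236%), PO1 (3.95%) or PO2 (3.01%). At least 1 such cluster was found for 8 of 10 members, as for 20.7% of all genes, and the exceptions were Dcn and Lum. The leading cluster was the same in both libraries for 7 of 10 members, and it differed for Lum, Kera and Prelp. Without EC1, OG2, PO1 and PO2, 7 pairs passed. Bgn in MG2 came to 3.26-fold and 1.92-fold, and Ogn in MG1 to 1.77-fold and 2.09-fold. The share of all genes was computed neither without these clusters nor for an unchanged leading cluster.

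**Figure D1:**
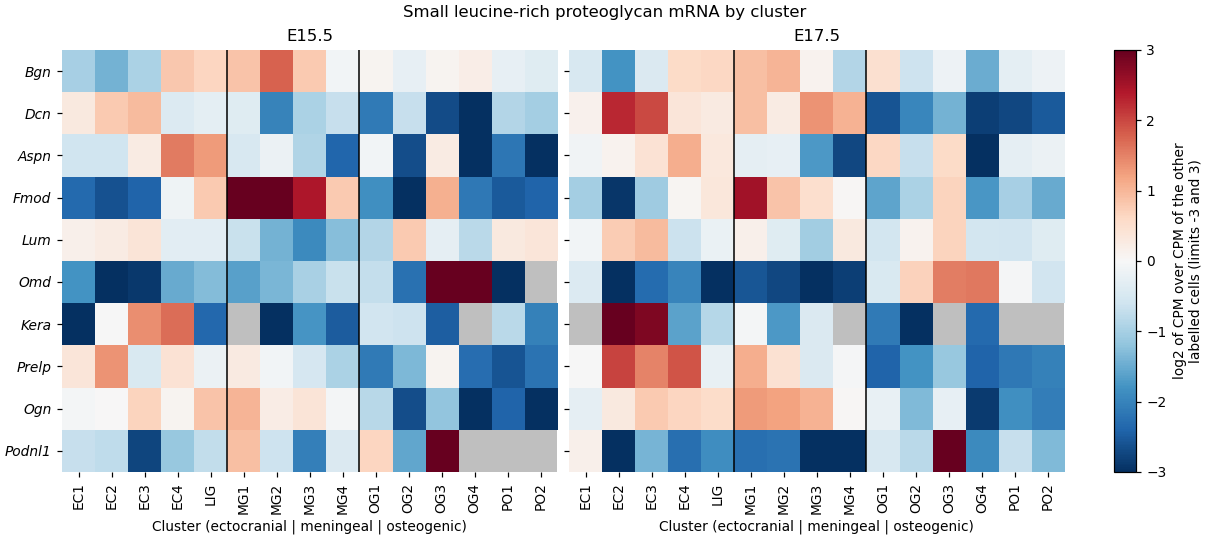
Heat map of the log2 ratio of the CPM of each member in a cluster to its CPM in all other labelled cells of the library, for both libraries. The colour is limited to 3 log2 units in either direction, and grey marks 0 UMIs. The highest ratios were those of Podnl1 in OG3 and Omd in OG4 at E15.5 (43.9-fold and 32.6-fold).

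By region, 3 members were at least 2-fold higher in ectocranial than in the other labelled cells in both libraries (Dcn, Kera and Prelp, beside 4.26% of all genes), 2 in osteogenic cells (Omd and Podnl1, beside 2.96%) and 1 in meningeal cells (Fmod, beside 3.02%). Dcn was 3.2-fold higher in ectocranial cells at E15.5 and 3.79-fold in the later library, and Prelp 2.40-fold and 3.91-fold. Omd was 12.3-fold and 8.46-fold higher in osteogenic cells and Podnl1 5.55-fold and 5.91-fold. Fmod was 10.6-fold and 3.80-fold higher in meningeal cells. Bgn in meningeal cells (2.71-fold and 1.74-fold), Aspn in ectocranial cells (2.58-fold and 1.46-fold) and Ogn in ectocranial cells (2.14-fold and 1.53-fold) passed the limit at E15.5 only, and Ogn in meningeal cells (1.25-fold and 2.48-fold) in the later library only. Whether these ratios differ between the libraries was not tested. Without EC1, OG2, PO1 and PO2, Prelp came to 1.95-fold and 3.53-fold in ectocranial cells. The other 5 stayed past 2-fold, with Dcn at 4.45-fold and 3.30-fold and Kera at 6.82-fold and 12-fold in ectocranial, Omd at 27.9-fold and 11.8-fold and Podnl1 at 12.6-fold and 9.73-fold in osteogenic, and Fmod at 8.92-fold and 3.49-fold in meningeal cells. For these calls, the share of all genes without those clusters was not computed. With all clusters, the median of the 10 members was 1.70-fold and 1.34-fold in ectocranial, 0.382 and 0.599 in osteogenic, and 0.606 and 1.25 in meningeal cells, beside medians of all genes from 0.923 to 1.01.

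Decorin, biglycan and asporin form class I of the family. Decorin, the prototype that binds along collagen fibrils and limits their width, had its highest levels in ectocranial fibroblasts. At E15.5, Dcn was at 8177 CPM in EC3, 7740 in EC2, 6202 in EC1, 4256 in LIG and 3931 in EC4, at 1336 to 3989 in meningeal clusters, and at 3265, 2810 and 2536 in OG2, PO1 and PO2. In the other osteogenic clusters it was at 1212 in OG1, 812 in OG3 and 530 in OG4, the lowest of all. At E17.5, EC3 (6934 CPM) and EC2 (6720) again led, the meningeal clusters had 2198 to 4603, and all 6 osteogenic clusters had 291 to 765. OG4 was lowest in both libraries, 15.4-fold and 23.8-fold below EC3, although its later level was close to those of PO1 and PO2. By suffix, Dcn in EC2 was at 5745, 7192 and 7045 CPM. After thinning every cell to 3000 UMIs, 100% of EC2 cells held a Dcn UMI in both libraries, as did 58.0% and 51.0% of OG4 cells and 27.1% and 28.7% of macrophage-like cells.

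Biglycan, which signals through toll-like receptors when released from the matrix, was low where decorin was high among the ectocranial clusters. Bgn was lowest of all in EC2 in both libraries, at 262 and 382 CPM, and higher in EC4, at 1019 and 1829 CPM. Its highest level was in MG2, at 1829 and 2399 CPM, with suffixes at 2837, 2174 and 2273. MG1 had 1115 and 2207 CPM and LIG 921 and 1807. In OG1 it was at 646 and 1657 CPM, in OG3 at 649 and 1144, and in OG4 at 703 and 476. At least 1 Bgn UMI was found in 91.8% and 99.2% of labelled cells, and in 26.0% and 73.8% of macrophage-like cells.

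Asporin, which binds collagen and calcium and restrains TGFβ signalling, led in EC4. At E15.5, Aspn was at 2109 CPM in EC4, 1817 in LIG, 976 in OG3, 954 in EC3 and 789 in OG1, and at 56.4 (46.0 to 68.4) in OG4. At E17.5 the order was EC4 (2387 CPM), OG1 (1710), OG3 (1657), EC3 (1574) and LIG (1447), and OG4 was again lowest, at 130. Aspn in OG4, where it did not exceed the interval of mast-like cells in either library, was 37.4-fold and 18.4-fold below EC4. In OG3, also osteogenic, it was 1.18-fold and 1.5-fold higher than elsewhere. In MG4 it was at 161 and 182 CPM. By suffix, EC4 was at 2303, 2346 and 2511 CPM.

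**Figure D2:**
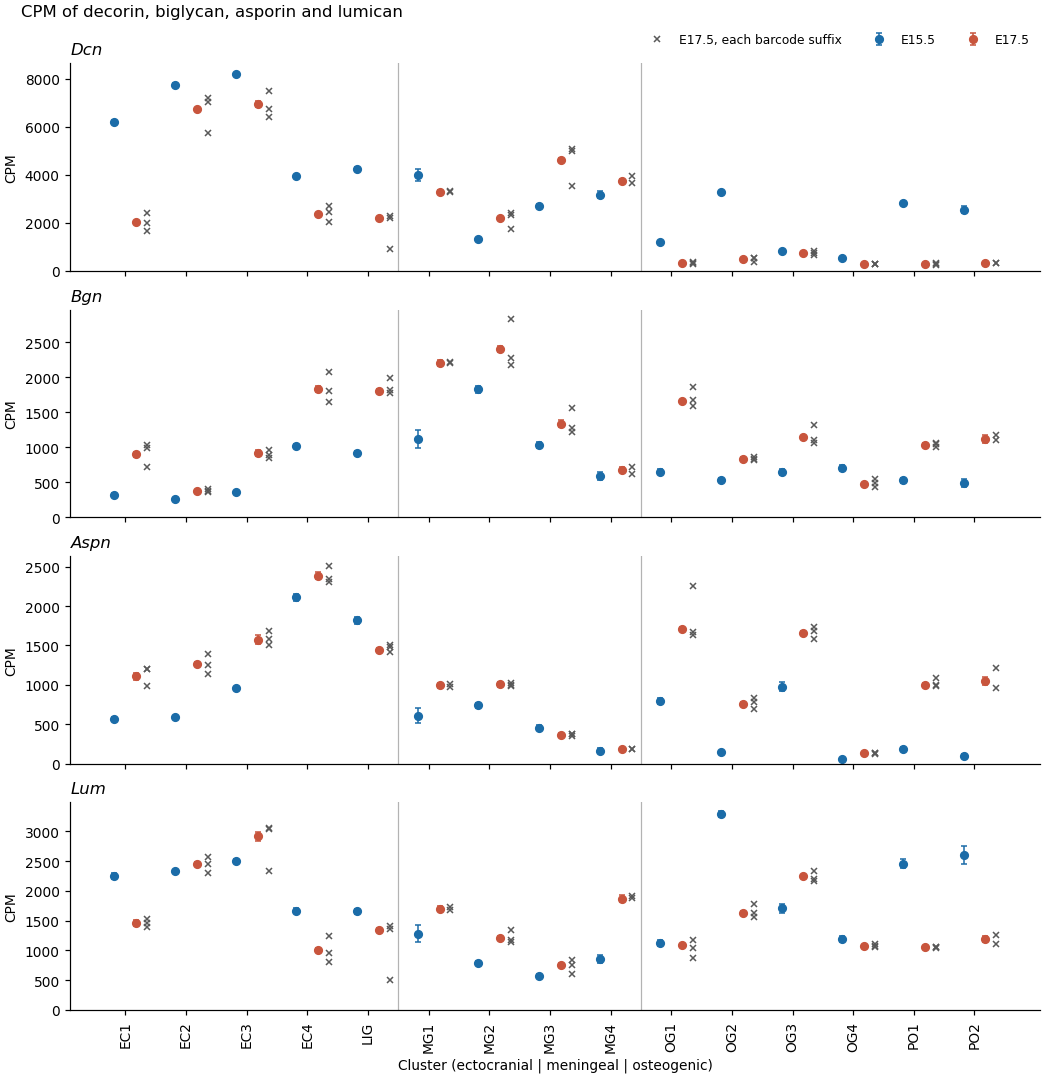
CPM of Dcn, Bgn, Aspn and Lum in 15 clusters of both libraries on linear axes from 0, with exact Poisson 95% intervals, and of each E17.5 barcode suffix with at least 20 cells (crosses). In EC2, Dcn is near its highest and Bgn at its lowest (7740 and 262 CPM at E15.5), and Aspn is lowest in OG4.

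Fibromodulin, lumican, keratocan, prolargin and osteomodulin form class II. Fibromodulin, a keratan sulfate proteoglycan of tendon that shares its collagen site with lumican, led in the meninges. Fmod was at 431 CPM (356 to 519) in MG1, 304 in MG2 and 247 in MG3 at E15.5, whereas EC1, EC2, EC3, OG1, OG2, OG4, PO1 and PO2 had 6.83 to 15.6, not above the macrophage background. OG3 was an exception among osteogenic clusters, with 111 CPM. At E17.5, MG1 was at 796 CPM (suffixes 2 and 3 at 792 and 800, with no MG1 cell in suffix 1), MG2 at 310, OG3 at 260, MG3 at 251 and LIG at 221. EC2 was lowest, at 25.7 CPM beside 23.9 in macrophage-like cells. After thinning, 48.1% and 86.3% of MG1 cells held an Fmod UMI, against 1.36% and 6.65% of macrophage-like cells.

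Lumican, which keeps collagen fibrils thin and regularly spaced in the cornea, had 5.84-fold and 3.89-fold between its highest and lowest cluster, less than any other member with UMIs in all clusters. At E15.5, Lum was at 3291 CPM in OG2, 2600 in PO2, 2502 in EC3 and 2460 in PO1, and lowest in MG3, at 564. Later, Lum was at 2921 CPM in EC3, 2454 in EC2 and 2247 in OG3, and at 751 in MG3. MG3 was thus lowest in both libraries, and without EC1, OG2, PO1 and PO2, EC3 led in both. Lum and its chromosomal neighbour Dcn were correlated over the 15 clusters with r = 0.41 in each library, on the log2(CPM + 1) scale.

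Keratocan, a keratan sulfate proteoglycan best known from the cornea, was carried by very few cells. Of 5335 labelled cells at E15.5, 136 held a Kera UMI, and 27 cells with at least 5 held 59.7% of the 407 Kera UMIs. Of these 27 cells, 14 were in EC3, 7 in EC4, 5 in EC2 and 1 in LIG. At E17.5, 52 of 6830 cells held a Kera UMI, and the 5 cells with at least 5 were all in EC2, 1 of them with suffix 1 and 2 with each of the others. Within EC2 the highest cells had 14 and 20 Kera UMIs, beside 905 and 592 cells with 0.

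The levels of other members in these cells were compared with those in the cells of the same cluster with no Kera UMI. In EC2 at E15.5, the 5 cells had 1235 CPM of Aspn (968 to 1553), beside 579 (563 to 595). In the E17.5 library, where 5 EC2 cells also passed, the values were 1032 CPM (813 to 1292) and 1267 (1242 to 1292). In EC4 at E15.5, 7 such cells had 6756 CPM of Dcn (6139 to 7419) and 2755 of Lum (2366 to 3189), beside 3835 and 1609 in the 443 cells with no Kera UMI. In EC2 the levels of Dcn were 7582 and 7715 CPM at E15.5. The cells were chosen by Kera after its values were seen, and these levels describe 5 to 7 cells. The comparison was made in EC2 and EC4, not for the 14 such cells of EC3 or the 1 of LIG.

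As cluster levels, Kera was at 22.7 CPM (18.3 to 27.8) in EC4, 16.2 (13.9 to 18.8) in EC3 and 8.36 in EC2 at E15.5. Later, the level was 9.81 CPM (7.76 to 12.2) in EC2 and 8.12 (4.64 to 13.2) in EC3, whose intervals overlap, and at 0.445 (0.0539 to 1.61) in EC4. In MG1 and OG4 at E15.5 and in EC1, MG4, OG3, PO1 and PO2 of the later library, Kera had 0 UMIs. For OG3 of the later library, 3 counts of the total would be 0.233 CPM, and for MG1 at E15.5 they would be 11.5.

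Prolargin, which anchors basement membranes and cartilage matrix through a heparin-binding end, was an ectocranial gene among the labelled cells. Prelp was at 56.7 CPM (51.9 to 61.8) in EC2 at E15.5, above EC4 (37.6) and EC1 (36.4), and at 22.3 to 30.1 in EC3, LIG, MG2 and OG3. In the E17.5 library, EC4 (129 CPM), EC2 (128) and EC3 (107) had overlapping intervals and stood above MG1 (79.0) and MG2 (53.1). In OG1, OG4, PO1 and PO2 it did not exceed the macrophage level in either library. The 784 and 318 chondrocyte-like cells outside the labels had more of it than any labelled cluster, at 198 and 256 CPM.

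Osteomodulin, a keratan sulfate proteoglycan of bone that binds hydroxyapatite, was highest in the osteoblasts. At E15.5, Omd was at 177 CPM (158 to 197) in OG4 and 84.3 (69.2 to 102) in OG3, and at 0 to 7.52 in the other 13 clusters, none of which exceeded the macrophage background. In the E17.5 library it was at 116 CPM (109 to 122) in OG4 and 109 (103 to 115) in OG3, whose intervals overlap, at 72.8 in OG2, 46.2 in PO1, 35.6 in both OG1 and EC1, and 32.1 in PO2. The values by suffix were 119, 109 and 121 CPM in OG4 and 82.8, 116 and 119 in OG3. Meningeal clusters had 5.88 to 8.35 CPM at that stage, not above the macrophage level. After thinning, 34.7% and 29.2% of OG4 cells held an Omd UMI, and 15% and 21.3% of OG3 cells, against 0.452% and 1.87% of macrophage-like cells.

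Osteoglycin, or mimecan, is the class III member among the 10, and podocan-like 1 belongs to class V. Osteoglycin, first isolated from bone, was low in the most mature bone-forming cells. Ogn was at 1099 CPM (976 to 1234) in MG1, 933 in LIG, 773 in EC3 and 700 in MG3 at E15.5, and at 51.6 to 107 in PO2, OG4, OG2 and PO1. Later, Ogn was at 661 CPM in MG1, 642 in MG2 and 596 in MG3, and at 44.8 in OG4, 71.0 in PO2 and 87.5 in PO1. OG1 and OG3 stood between, at 311 and 244 CPM in the earlier and 257 and 256 in the later library. The levels over the 15 clusters were the most alike between the libraries of all members, with r = 0.95. In OG4, Omd stood at 32.6 and 3.00 times the level of the remaining labelled cells, whereas its neighbour Ogn was at 0.113 and 0.136 of it and Aspn, on the other side, at 0.0653 and 0.0985. In both libraries, these Ogn and Aspn levels did not exceed the interval of mast-like cells.

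Podnl1, which the authors name as a marker of OG3 from these same cells, gave few UMIs and led in OG3 in both libraries. It was at 41.7 CPM (31.4 to 54.5) in OG3 at E15.5, from 54 UMIs, and at up to 3.82 in the other clusters, none of them above the macrophage background. At E17.5, Podnl1 was at 42.9 CPM (39.4 to 46.6) in OG3, with suffixes at 28.8, 50.5 and 44.1, and next at 10.3 in EC1, 6.86 in OG1, 5.91 in PO1 and 5.42 in OG2. In OG4 it had 0 UMIs at E15.5 and 2.67 CPM later. After thinning, 9.77% and 12.3% of OG3 cells (median depths of 8519 and 12948 UMIs) held a Podnl1 UMI, against 0.452% and 0.416% of macrophage-like cells (9001 and 9562). Neighbouring osteogenic clusters thus differed, with Podnl1 in OG3, Omd in OG3 and OG4, and neither above 2-fold in OG1, OG2, PO1 or PO2 of both libraries.

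**Figure D3:**
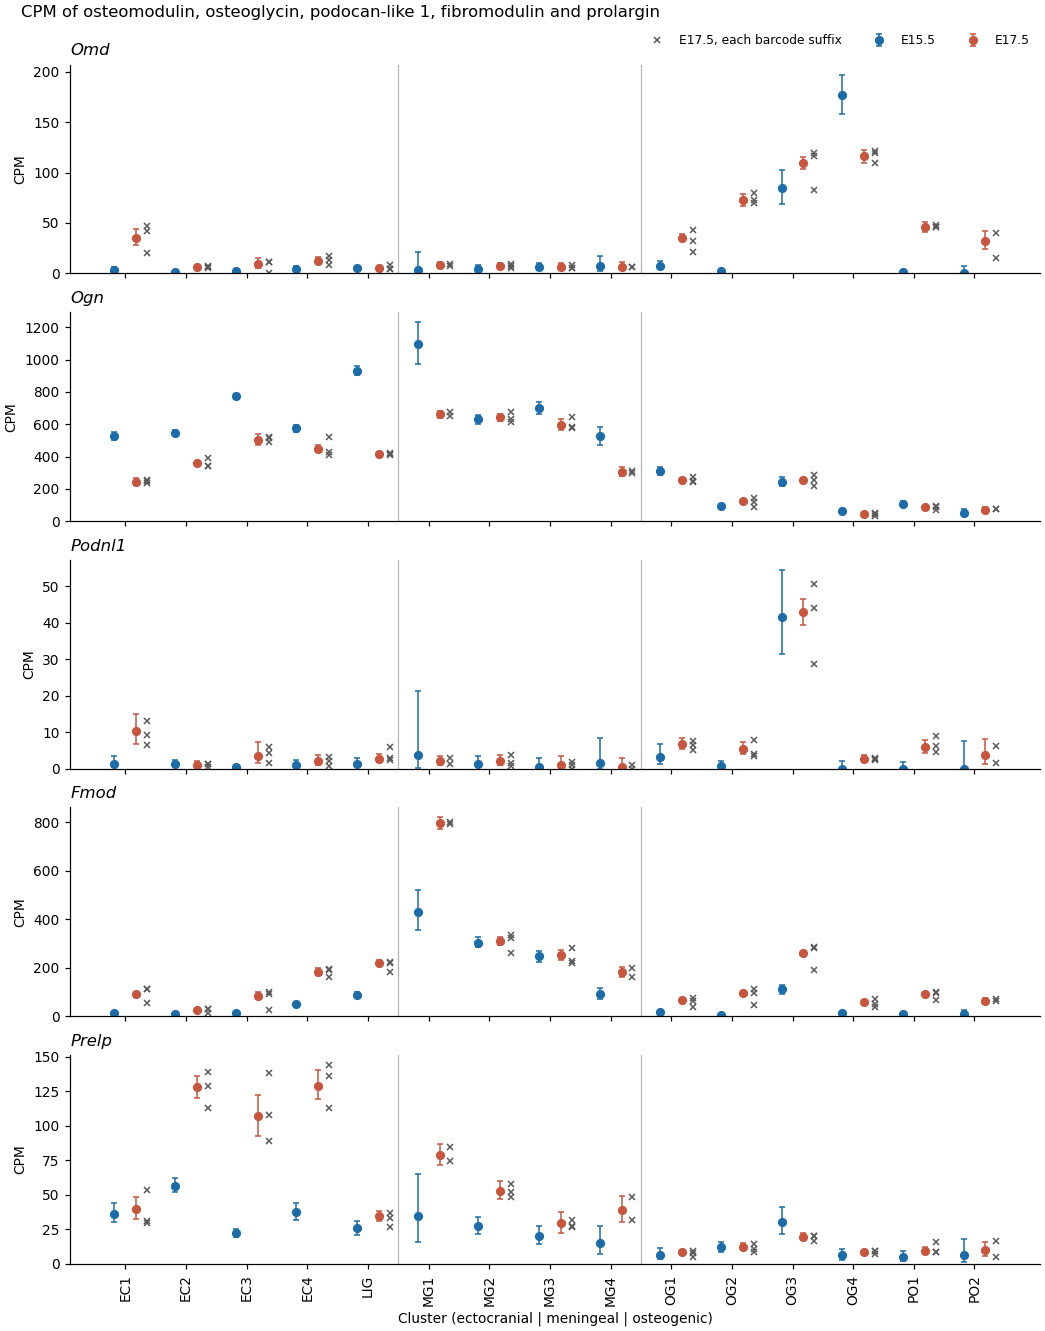
CPM of Omd, Ogn, Podnl1, Fmod and Prelp in 15 clusters of both libraries on linear axes from 0, with exact Poisson 95% intervals, and of each E17.5 barcode suffix with at least 20 cells (crosses). Omd leads in OG4 and OG3, where Ogn is at 64.1 and 244 CPM at E15.5, and Podnl1 stands out in OG3 at 41.7 and 42.9 CPM.

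Over the 15 clusters, some members went together and others apart. On the log2(CPM + 1) scale, the correlation between Bgn and Fmod was 0.79 in the E15.5 and 0.74 in the E17.5 library, and that between Prelp and Ogn 0.77 in each. Dcn and Omd went in opposite directions, with r of -0.74 and -0.82. Neighbours on chromosome 13 did not share a pattern in both libraries, with r of -0.09 and -0.10 for Aspn and Omd, -0.13 and -0.78 for Omd and Ogn, and 0.78 and 0.37 for Aspn and Ogn. All points of a correlation share a library and a set of clusters made on the same cells, so these are descriptions.

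The genes most alike to each member were ranked by the smaller of the correlations in both libraries, over 15 clusters. For Podnl1 the first was Mmp13, a collagenase of osteoblasts and hypertrophic cartilage (0.84 and 0.87), which was at 321 and 185 CPM in OG3. The authors name both genes as OG3 markers from these same cells. For Fmod the list held Col12a1, a collagen on fibril surfaces (0.93 and 0.86), after Pdlim5 and Tmem51. For Aspn it began with P4ha3, a prolyl hydroxylase subunit for collagen (0.88 and 0.91), and for Prelp it held Loxl1, an enzyme that crosslinks elastin (0.84 and 0.85). The first genes for the others were Pmepa1 for Bgn (0.90 and 0.88), B830012L14Rik for Dcn (0.95 and 0.94), Myo1d for Omd (0.92 and 0.90) and Gstt3 for Ogn (0.94 and 0.94). The first for Lum was Cnrip1 (0.76 and 0.75) and for Kera Galnt12 (0.72 and 0.72).

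Between the libraries, levels in the same cluster were compared for 136 pairs of a member and a cluster with at least 10 UMIs in 1 of them. The E17.5 level was at least 2-fold above the E15.5 level in 41 pairs and at least 2-fold below in 14, where 10.1% and 10.9% of the pairs of all genes passed. Without EC1, OG2, PO1 and PO2 these were 25 and 4 of 99 pairs, beside 9.72% and 10.3% of all genes. The 25 higher pairs were 7 of Fmod, 5 each of Omd and Prelp, 3 of Aspn, 2 each of Bgn and Podnl1 and 1 of Lum, and the 4 lower were 2 of Kera and 1 each of Dcn and Ogn. OG1 gave higher pairs of Bgn, Aspn, Fmod, Omd and Podnl1 and lower pairs of Dcn and Kera, and its Sp7 level was low at E15.5. The counting interval excluded a ratio of 1 in 38 of the 41 higher and in all 14 lower pairs, and each E17.5 suffix was past 2-fold in 30 and 12. The median log2 ratio of all genes lay between -0.07 and 0.22, and it was above 0.1 in MG4 (0.18) and OG4 (0.22).

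Members differed in the direction of the ratio. Fmod was higher at E17.5 in 11 of 15 clusters, among them EC3 (12.5 and 85.3 CPM, 6.83-fold), EC4 (50.3 and 184, 3.66-fold) and OG1 (15.6 and 65.4, 4.19-fold), and within 2-fold in the 4 meningeal clusters. Of the 11 clusters, 8 (EC1, EC2, EC3, OG1, OG2, OG4, PO1 and PO2) were not above the macrophage level at E15.5, and EC2 was above it in neither library. In EC3 the E17.5 suffixes ranged from 26.5 to 102 CPM. Bgn was higher in 4 clusters and Aspn in 6, of which EC3 and OG1 for Bgn and EC2, OG1 and OG4 for Aspn are outside the 4 labels in doubt. The level in macrophage-like cells was also higher at E17.5, by 3.58-fold for Fmod, 3.78-fold for Aspn and 2.33-fold for Bgn, and the part of free RNA in these ratios was not tested. Prelp was higher in 5 clusters, all ectocranial or meningeal (EC2, EC3, EC4, MG1 and MG4, 2.26-fold to 4.78-fold), while in macrophage-like cells it was at 12.9 and 5.97 CPM. At E15.5, MG1 and MG4 held 9 and 10 Prelp UMIs and were not above the macrophage level.

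Omd was higher at E17.5 in 9 clusters, none of them above the macrophage level at E15.5. Of these, EC2, EC3 and MG1 were not above that level in either library. Its largest ratios stood under labels in doubt (OG2, 2.68 and 72.8 CPM, PO1, 0.979 and 46.2, and EC1, 3.58 and 35.6). In OG1 it was at 7.28 and 35.6 CPM, a ratio of 4.9 (2.89 to 9.03), whereas in OG3 (1.29) and OG4 (0.654) it was within 2-fold. In MG1 the ratio of 2.19 rested on 1 UMI at E15.5 and had an interval of 0.374 to 88.3. In macrophage-like cells Omd was at 2.67 and 4.58 CPM. Podnl1 in OG3, its leading cluster, had a ratio of 1.03 (0.775 to 1.38), and it was at least 2-fold higher at E17.5 in 5 of 10 clusters compared. Of these, EC1, OG2 and PO1 are labels in doubt, and the intervals of LIG (0.814 to 7.24) and OG1 (0.968 to 6.17) include 1.

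Dcn was at least 2-fold lower at E17.5 in EC1 (6202 and 2025 CPM), OG1 (1212 and 343), OG2, PO1 and PO2, and at least 2-fold higher in none. Of these, only OG1 is outside the 4 labels in doubt. In EC2 and EC3, where Dcn was highest, the ratios were 0.868 and 0.848. Lum was lower in OG2, PO1 and PO2 and higher in MG4 (852 and 1868 CPM), and it was within 2-fold in the other 11 clusters. Its 3 lower clusters are all labels in doubt. Kera was lower in EC4, where 93 UMIs at E15.5 stood against 2 at E17.5 (a ratio of 0.0196, 0.00234 to 0.0728). Of those 93 UMIs, 56 were in 7 cells, which the interval does not take into account. Kera was also lower in OG1, OG2 and PO1, and its ratio in EC3 was 0.501 (0.280 to 0.836). Ogn was lower in LIG (933 and 415 CPM) and EC1, and within 2-fold in the other 13 clusters.

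**Figure D4:**
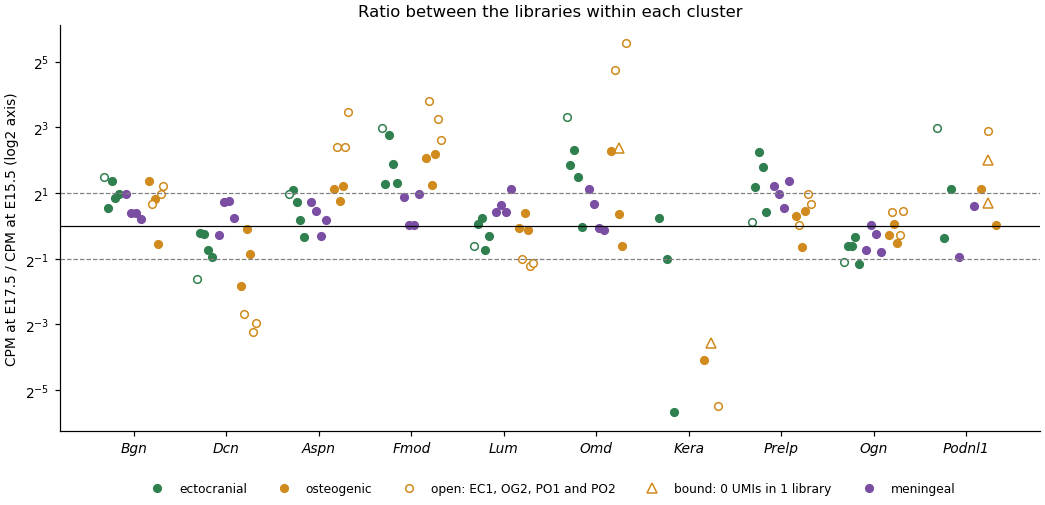
Ratio of the CPM at E17.5 to that at E15.5 within each cluster, on a log2 axis, for pairs with at least 10 UMIs in 1 library. Points are clusters, open points are EC1, OG2, PO1 and PO2, triangles are bounds where 1 library has 0 UMIs (taken as 3), and dashed lines are at 2-fold. Fmod has 11 and Dcn 0 clusters at or above the upper line, and Dcn has 5 below the lower. Of the 11 of Fmod, 8 were not above the macrophage level at E15.5.

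Against the kept cells outside the labels, 5 members were at least 2-fold higher in all labelled cells in both libraries (Dcn, Aspn, Lum, Kera and Ogn, beside 4.29% of all genes). Dcn was 6.45-fold and 5.28-fold higher, Kera 11.9-fold (7.73 to 19.1) and 12.5-fold (4.17 to 61.4), and Lum 4.70-fold and 2.47-fold. Bgn was 1.94-fold and 1.67-fold higher and Omd 1.75-fold and 1.66-fold. Prelp was at 28.7 CPM in labelled and 93.6 in other cells at E15.5, and at 39.6 and 41.6 later.

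Outside the labels, the members had other distributions. Pericyte-like cells, which wrap small vessels, had 865 and 1378 CPM of Bgn and 493 and 580 of Aspn, but 279 and 194 of Dcn and 53.6 and 39.0 of Ogn. Of the 318 chondrocyte-like cells of the E17.5 library, 160 came from a cluster led by Prg4, the lubricin gene of joint surfaces, whereas a cluster of 176 cells led by Prg4 at E15.5 had no chondrocyte marker past 2-fold and was not named. The classes therefore hold different cells, and no comparison is made between stages. Those 318 cells had 1368 CPM of Bgn, 467 of Fmod, 256 of Prelp and 118 (106 to 130) of Omd, the last within the interval of OG4. In the E15.5 library, 784 chondrocyte-like cells had 248, 104, 198 and 7.30 CPM of the same genes. Podnl1 was at 7.53 and 7.10 CPM in pericyte-like cells, and at 6.98 and 6.59 in the 915 and 542 cells that were given no name. The unnamed cells are several clusters pooled. At E15.5, an unnamed cluster of 224 cells had Podnl1 among its leading genes over the other cells outside the labels. Its own level was not computed, so Podnl1 was not shown to be particular to OG3 among all cells.

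**Figure D5:**
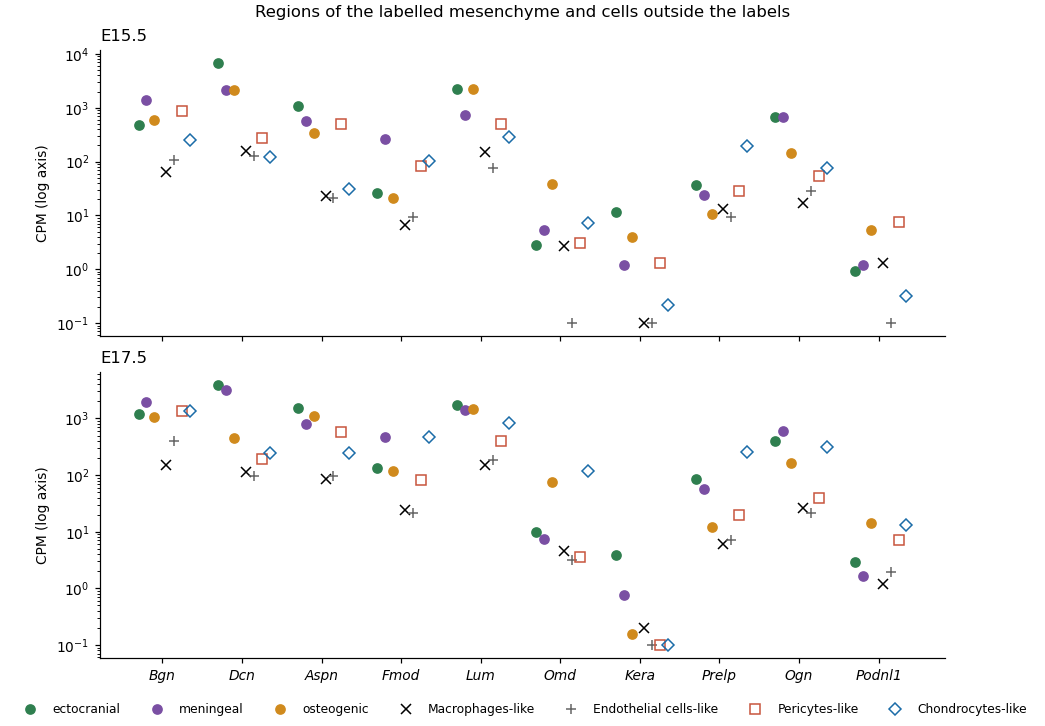
CPM of the 10 members, on a log axis, in the 3 regions of the labelled mesenchyme (filled circles) and in 4 cell types outside the labels (other symbols) for both libraries. Values of 0 are drawn at the bottom of the axis. Prelp is higher in chondrocyte-like cells (198 and 256 CPM) than in any region, and Bgn and Aspn are high in pericyte-like cells.

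Other genes of the pathway were described from lists by the same 2-fold limits, which 4.26% of all genes passed in ectocranial, 2.96% in osteogenic and 3.02% in meningeal cells, and 20.7% in at least 1 cluster. With 5 to 20 genes a list, 1 or 2 genes past a limit are few to read against these shares. Of 7 other family members with enough UMIs, 2 were meningeal in both libraries and none ectocranial or osteogenic. Epyc, a class III member next to Kera, was 15.8-fold higher in meningeal cells in each library, and Chad, or chondroadherin, was 3.92-fold and 7.84-fold higher. Epyc was at 202 CPM in MG4 at E15.5 and at 233 in MG1 later, and Chad at 19.9 and 74.8 in MG2. The median ratio of these 7 genes was 1.87 and 1.41 in meningeal cells, and that of all genes 0.923 and 1.00.

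Enzymes that build and sulfate chondroitin and dermatan sulfate chains passed the limit in 1 ectocranial, 2 osteogenic and 2 meningeal cases of 20 genes. Chst13 and Chst11, which sulfate chondroitin, were highest in OG4 in both libraries, at 77.4 and 83.6 CPM and at 40.3 and 24 CPM. Csgalnact1, which starts chondroitin chains, was 3.87-fold and 17.6-fold higher in meningeal cells, and Xylt1, which attaches the first xylose to the core protein, 2.55-fold and 2.37-fold. Chst7 was 5.20-fold and 4.58-fold higher in ectocranial cells. The median ratio of the 20 genes lay between 0.752 and 1.22 in every region and library. Of 7 enzymes of keratan sulfate and tyrosine sulfation, none passed in a region and 2 passed in a cluster (B4galt1 in EC1 and Chst1 in MG4).

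Among 11 collagen partners, Col14a1, a collagen that bridges fibrils, was meningeal (7.28-fold and 10.4-fold), and Col12a1 passed in MG1, the leading cluster of Fmod. Among 5 receptors, Tlr2 and Tlr4, which soluble biglycan binds, and Met, which decorin binds, were ectocranial in both libraries, with Tlr4 6.87-fold and 4.28-fold and Met 3.54-fold and 3.59-fold higher. Egfr, which decorin also binds, was meningeal (3.64-fold and 3.42-fold). Tlr2 and Tlr4 had at most 11.7 CPM in any cluster. The median ratio of the 5 receptors in ectocranial cells was 3.54 and 3.59, beside 0.970 and 0.986 for all genes. In all labelled over the other kept cells, their median ratio was 0.822 and 0.427. These genes were not set against the macrophage background. Of 8 proteases, Tll1, a procollagen C-proteinase, was ectocranial (9.58-fold and 2.41-fold, from 90 and 76 UMIs) and Mmp13 osteogenic (27.9-fold and 6.83-fold).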

How the data were processed

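Cells of the coronal suture were profiled by single-cell RNA-seq at 2 stages, with 1 deposited count matrix each, which is what library means here. According to the paper, each of the 3 batches of E17.5 had its own library preparation, so the E17.5 matrix pools them. The authors deposited raw counts of UMIs for each gene in each barcode, not normalized and not yet filtered, and a table that gives each cell its cluster label. Reads were aligned to mm10 and counted by the authors with Cell Ranger, and software version 3.1.0 stands in the E15.5 matrix, whereas the methods name an older one. The authors clustered both libraries jointly with Seurat 3.2.0.

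Labelled cells were used as deposited (5335 and 6830, of which 93 and 0 lay outside the following limits). Unlabelled barcodes were kept from 1000 UMIs and 1000 genes upward, with no more than 7.5% of UMIs mitochondrial and 3% each from Hbb and Hba genes (2875 and 1937), and were clustered with scanpy 1.11.5 (2000 variable genes, 30 principal components, 30 neighbours, Leiden resolution 1). They were named from at least 3 markers past 2-fold, except 167 cells at E15.5 that had 4 chondrocyte markers but were led by Ttr, Dct and Rlbp1 and stayed unnamed, a choice made after seeing the data. Doublets were kept, and removing the highest Scrublet scores was an alternative. Counts were summed per cluster, with exact Poisson, conditional binomial (ratios) or Clopper-Pearson (shares) 95% intervals. Where a count was 0, 3 counts of the total were used. No p-value was computed. Between suffixes and libraries, 5 to 19 labelled cell barcodes were shared per pair. The members and lists were chosen with earlier results of these data known. The genes named are the 10 members, those of 6 lists, and the 3 genes most like each member. Cells of the Kera comparison and clusters EC1, OG2, PO1 and PO2 were singled out after their values were seen. Positions are from GENCODE (GRCm38). Calculations were tested on simulated data with Python 3.11.15, numpy 2.4.6, scipy 1.17.1 and pandas 2.3.3.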

Additional observations from a re-analysis of the deposited data

Results flagged for a closer look

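Some ratios lay on opposite sides of 1 in the 2 libraries, and none of these differences was tested. Dcn in meningeal cells was at 0.385 of its level in the other labelled cells at E15.5, but at 1.96 times that level in the E17.5 library. Fmod in all labelled cells was at 0.822 of the kept cells outside the labels at E15.5, but at 1.64 times them later. Podnl1 in the same comparison was at 0.668 and 1.78. Kera in EC4 stood at 3.22 times its level elsewhere in the labelled cells of the earlier library and at 0.327 of it (0.0391 to 1.21) in the later, the last from 2 UMIs.

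Barcodes outside the limits on UMIs, genes, mitochondrial and haemoglobin shares, which entered no comparison, also held members. There were 80390 UMIs of the 10 members in 7174 such barcodes at E15.5 (2238 CPM) and 11759 in 559 barcodes of the E17.5 library (3117 CPM).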

How the results depend on the processing

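Of 86 counts recomputed under the alternatives, 78 stayed within 1.5 times the main count. A limit of 1.5-fold gave 17 pairs of a member and a cluster (9 at 2-fold), 62 and 27 pairs higher and lower at E17.5 (41 and 14), and 28 pathway genes past the limit in a region (14). The shares of all genes past 1.5-fold were not computed, so these counts have no background beside them. As shares of thinned cells with a UMI, 6 pairs were lower at E17.5 and 2 members (Kera and Ogn) were higher in labelled than in other cells. Aspn in EC4, Ogn in MG1, Bgn in MG2 and Dcn in ectocranial cells were no longer past 2-fold, which left 6 cluster pairs and 5 region calls. Such a share has a ceiling once every cell holds a UMI, so abundant members can lose a call whatever their level. Whether the ceiling accounts for the lost calls was not tested. Without EC1, OG2, PO1 and PO2, chosen after seeing the data, 25 pairs were higher and 4 lower at E17.5. The ratio of a member's leading cluster to the other labelled cells stayed above 1 in all 219 recomputed values and moved by over 1.5 times in 14, of which 13 were thinned shares and 1 was Kera in EC2 without E17.5 barcode suffix 2 (29.6-fold, 18.9-fold with it). Without suffix 1, Bgn in MG2 was no longer past 2-fold, and at E17.5 Omd led in OG3 and Dcn and Prelp in EC2. Without suffix 2, Ogn led in MG2, and without suffix 3, Kera led in EC3 and Prelp in EC2. Ogn in MG1 was also under 2-fold with cells of at least 3000 UMIs and with a median-of-ratios size factor. No paired analysis was possible because each stage has 1 count matrix. Depth limits Kera and Podnl1 most, with 122 and 99 UMIs in the library where each was rarest.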
